A study of Mus musculus with 225 samples.

Results

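*Hoxd8*, *Hoxd9*, *Hoxd10* and *Hoxd11* are 4 neighbouring genes of the *HoxD* cluster, and they were described in single cells taken from the zeugopod, the part of the forelimb bud that forms the forearm. The genes were chosen by name, as 4 of the 23165 genes counted, and not by any measured value. The cells came from mouse forelimbs at embryonic day 12.5 (E12.5) that were heterozygous for *Hoxd11*::GFP on a mixed C57Bl6CBAF1 background. This allele is a knock-in in which a bicistronic cassette with an internal ribosome entry site (IRES) and tau-GFP was placed in frame in the *Hoxd11* coding sequence, and the insertion inactivates *Hoxd11* on that chromosome. All cells of both tissues carried this allele, and no wild-type or GFP-negative cells were compared here. Forelimbs of several embryos were pooled, split into zeugopod and autopod (the future hand), dissociated, and sorted for the brightest GFP cells before capture on a microfluidic chip. The normalized table retained 58 zeugopod cells of run NXT0142 and 65 of run NXT0143, all captured zeugopod cells but 6, and these 2 sets together are the zeugopod cells of the text. Of 96 captured autopod cells 76 were retained, 59 in run NXT0072 and 17 in run NXT0143, and they serve here as the tissue beside. The cells were therefore chosen for GFP made from the *Hoxd11* locus, so that *Hoxd11* is not independent of the choice of cells, and reads of its wild-type and knock-in alleles could not be told apart.

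*Hox* genes encode homeodomain transcription factors that give cells their position along the body and limb axes. In the limb bud the posterior *Hoxd* genes are switched on in an early phase that covers the future arm and forearm and a late phase in the future digits. The early phase is driven by enhancers on the telomeric side of the cluster, next to the *Hoxd8* end, and the late phase by enhancers on the centromeric side, next to the *Hoxd13* end. *Hoxd8* to *Hoxd11* belong to the genes that answer the telomeric side, whereas *Hoxd9*, *Hoxd10* and *Hoxd11* also answer the centromeric side together with *Hoxd12* and *Hoxd13*. Loss of *Hoxd11* together with its paralog *Hoxa11* severely shortens the radius and ulna, whereas *Hoxd9* and *Hoxd10* share overlapping roles with their paralogs in the upper limb segments.

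All 4 genes lie on the plus strand of mouse chromosome 2 (build GRCm38, GENCODE annotation), within 28.377 kb. *Hoxd11* occupies chr2:74679557-74687016, *Hoxd10* chr2:74691924-74695105, *Hoxd9* chr2:74697727-74700208 and *Hoxd8* chr2:74704615-74707933. The annotated starts of *Hoxd9* and *Hoxd10* are 5.803 kb apart, those of *Hoxd8* and *Hoxd9* 6.888 kb, those of *Hoxd10* and *Hoxd11* 12.367 kb, and those of *Hoxd8* and *Hoxd11* 25.058 kb. The promoter windows are printed because these neighbours were read here as a group, and the windows show how unlike the start regions taken here are. Each holds 250 bases before and 50 after a RefSeq transcript start (build GRCm38.p6, plus strand), read 5′ to 3′, with capitals marking exact matches to CCAAT or GGGCGG on either strand (a minus-strand match reads ATTGG or CCGCCC). The windows are chr2:74704365-74704664 for *Hoxd8*, chr2:74697513-74697812 for *Hoxd9*, chr2:74691641-74691940 for *Hoxd10* and chr2:74682073-74682372 for the start of the coding transcript of *Hoxd11*.
Hoxd8: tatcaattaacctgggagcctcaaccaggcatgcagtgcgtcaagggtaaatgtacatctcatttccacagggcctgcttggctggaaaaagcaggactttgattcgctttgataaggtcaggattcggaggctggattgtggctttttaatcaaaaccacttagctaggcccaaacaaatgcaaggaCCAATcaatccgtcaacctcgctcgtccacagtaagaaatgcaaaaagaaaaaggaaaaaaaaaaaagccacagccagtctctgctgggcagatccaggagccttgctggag
Hoxd9: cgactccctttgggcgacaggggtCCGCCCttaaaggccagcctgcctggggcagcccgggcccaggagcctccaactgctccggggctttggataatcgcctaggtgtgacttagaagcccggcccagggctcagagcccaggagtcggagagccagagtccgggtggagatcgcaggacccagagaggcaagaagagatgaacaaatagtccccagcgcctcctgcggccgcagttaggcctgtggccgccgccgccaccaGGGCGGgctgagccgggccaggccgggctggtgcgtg
Hoxd10: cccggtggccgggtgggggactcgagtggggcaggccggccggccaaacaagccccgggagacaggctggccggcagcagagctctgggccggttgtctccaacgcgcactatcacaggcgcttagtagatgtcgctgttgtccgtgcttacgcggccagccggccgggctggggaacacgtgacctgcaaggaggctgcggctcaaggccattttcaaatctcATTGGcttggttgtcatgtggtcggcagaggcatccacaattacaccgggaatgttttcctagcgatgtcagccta
Hoxd11: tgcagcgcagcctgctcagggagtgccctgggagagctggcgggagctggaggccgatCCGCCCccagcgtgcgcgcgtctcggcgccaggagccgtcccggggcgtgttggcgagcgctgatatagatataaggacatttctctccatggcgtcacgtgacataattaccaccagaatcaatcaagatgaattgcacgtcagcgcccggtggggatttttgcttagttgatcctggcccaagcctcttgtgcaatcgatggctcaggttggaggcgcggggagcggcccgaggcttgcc

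The *Hoxd8* window held 6 CG pairs, close to the median of 7 over the 32851 promoters of the same table. *Hoxd9* held 20 CG pairs, *Hoxd10* 22 and *Hoxd11* 25. A further *Hoxd11* start, that of a longer non-coding transcript, has the window chr2:74679308-74679607 with 4 CG pairs. Other coding transcripts of *Hoxd8* are annotated to start at chr2:74704905 and chr2:74705152, beyond its window. Those starts have no window here, so the *Hoxd8* values describe the most upstream start alone. TATAAA was searched as well and was in none of the 5 windows, against 13.6% of all promoters. CCAAT was in the *Hoxd8* and *Hoxd10* windows, against 37.4% of all promoters, and GGGCGG was in the *Hoxd9* window on both strands and in the coding *Hoxd11* window, against 35.7%. Such matches describe letters and not bound sites.

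The tissue labels were checked with genes that mark the limb segments, a cell counting when it had at least 5 reads. *Shox2*, a homeobox gene of the upper limb segments, was counted in 73 zeugopod cells (59.3%) and in 0 of 76 autopod cells, which allows an autopod share of up to 3.95% by the limit of 3 cells used here wherever a count was 0. *Hoxd13*, the gene at the digit end of the cluster, was counted in 1 zeugopod cell (0.81%) and in 65 of 76 autopod cells. The autopod cells of the runs were not alike in this: *Hoxd13* was counted in 54 of 59 cells of run NXT0072 and 11 of 17 of run NXT0143, *Hoxa13* in 39 of 59 and 6 of 17, and *Msx1* in 38 of 59 and 8 of 17. Cells had a median of 4.05e+06 reads on genes in zeugopod run NXT0142 (186271 to 6801278) and 2.66e+06 in zeugopod run NXT0143 (425695 to 4282436), with medians of 4283.5 and 3745 genes detected. Of the lists of other cell types, muscle, epithelium, endothelium and macrophage markers reached their required number in 0 zeugopod cells each. *Myod1* and *Myog*, the defining muscle genes, were counted in no cell, *Krt5* and *Cdh5* likewise. Other members of these lists were counted, *Pax7* of the muscle list in 15 zeugopod cells, *Csf1r* of the macrophage list in 17, and *Epcam*, *Krt14* and *Cdh1* of the epithelial list in 9, 5 and 3. The summed CPM (reads per 1e+06 reads on genes) of the muscle list ranged from 0 to 7.54, that of the endothelial list from 0 to 19.2, that of the macrophage list from 0 to 10.3 and that of the epithelial list from 0 to 1741. Of the 4 blood genes listed, 1 was measured, *Hba-x*, and it was counted in no zeugopod cell. Each tissue was 1 pooled sample whose cells are not replicates. Values are therefore given without p-values, and shares carry exact binomial (Clopper-Pearson) 95% intervals that cover counting error only. The reads carried no molecular identifiers.

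The levels of the 4 genes ranged from no read to over 1000 reads among zeugopod cells, although in run NXT0143 the highest count of *Hoxd9* was 561. *Hoxd11* was detected most widely, with 0 reads in 18 zeugopod cells, 1 to 4 in 7, 5 up to 100 in 16, 100 up to 1000 in 53 and 1000 or more in 29. The class from 100 up to 1000 was its fullest. *Hoxd10* had 0 reads in 40 cells, 1 to 4 in 11, 5 up to 100 in 17, 100 up to 1000 in 25 and 1000 or more in 30. *Hoxd8* had 0 reads in 41 cells, 1 to 4 in 14, 5 up to 100 in 26, 100 up to 1000 in 15 and 1000 or more in 27. For both genes the cells with no read were the largest class, and those with 1000 or more were more than for *Hoxd9*. *Hoxd9* had 0 reads in 79 cells, 1 to 4 in 9, 5 up to 100 in 17, 100 up to 1000 in 14 and 1000 or more in 4, and was the least detected of the 4.

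In CPM, *Hoxd11* ran from 0 over a median of 160 to 1077 in zeugopod run NXT0142, and from 0 over 55.9 to 814 in run NXT0143. *Hoxd10* ran from 0 over 106.3 to 1690 in run NXT0142 and from 0 over 0.700 to 6981 in run NXT0143, so that its highest cell stood in the run with the lower median. *Hoxd8* ran from 0 over 25.8 to 2677 in run NXT0142 and from 0 over 0.431 to 2242 in run NXT0143. The median of *Hoxd9* was 0 in both runs, with highest values of 502 and 238. The cells of the 2 runs overlapped for every gene, and the medians of *Hoxd8*, *Hoxd10* and *Hoxd11* were higher in run NXT0142.

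**Figure D1:**
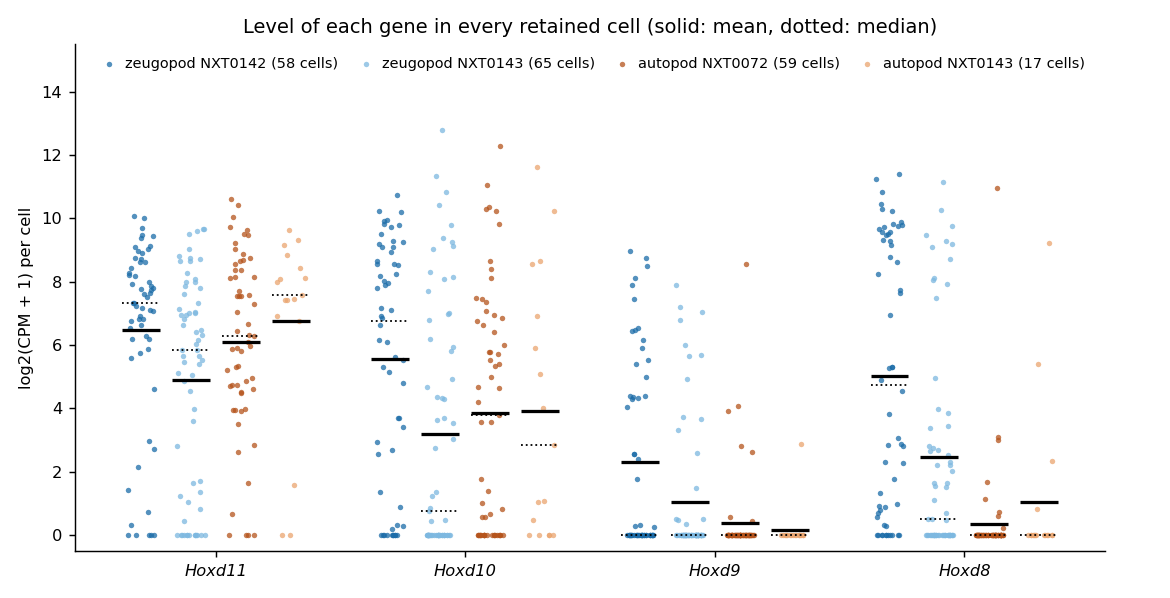
Level of each gene in every retained cell by tissue and run, as log2(CPM + 1); each point is 1 cell, solid lines are means and dotted lines are medians. Of the zeugopod runs NXT0142 has the higher mean for all 4 genes, and *Hoxd8* and *Hoxd9* stay at or near 0 in most autopod cells.

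The output of each gene was concentrated in a minority of cells to a different degree. The 13 zeugopod cells with the highest values held 40.8% of the summed CPM of *Hoxd11*, 60.3% of that of *Hoxd8*, 64.4% of that of *Hoxd10* and 82.5% of that of *Hoxd9*. Over the 4304 genes that had 5 or more reads in 25% or more of the zeugopod cells the median was 74%, with an interquartile range of 58.3% to 85%. The runs differed in this measure. Within run NXT0142 the top 6 cells held 47.4% of the summed CPM of *Hoxd8*, 41.2% of that of *Hoxd10*, 75.4% of that of *Hoxd9* and 34.8% of that of *Hoxd11*, beside an interquartile range of 55.4% to 83.6% over all genes. Within run NXT0143 the top 7 cells held 81.8%, 83.8%, 91.8% and 47.6%, beside 57.2% to 83.8%. *Hoxd11* lay under the lower quartile in both runs, in cells that had been sorted on its own locus, and *Hoxd8* and *Hoxd10* did so in run NXT0142 alone. One cell alone held 20.2% of the summed CPM of *Hoxd10*.

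The rule of the study was used to call a gene on: its normalized value, which is per kilobase of transcript, had to reach 5 and also had to come to no less than 5% of the top value among the 9 *Hoxd* genes of that cell. The minimum of 5 alone corresponds to a median of 20.8 *Hoxd11* reads in zeugopod run NXT0142 and 19.5 in run NXT0143. For the shorter *Hoxd10* it corresponds to 8.84 and 8.31, so the minimum asked for about the same number of reads in both runs. The 5% part is not in these reads. It left out *Hoxd11* in 5 cells of run NXT0142 and 3 of run NXT0143 that reached the minimum, and *Hoxd8* in 6 and 6. *Hoxd11* was on in 84 zeugopod cells (68.3%, 95% interval 59.3 to 76.4%) and *Hoxd10* in 65 (52.8%, 43.6 to 61.9%). *Hoxd8* was on in 47 (38.2%, 29.6 to 47.4%) and *Hoxd9* in 26 (21.1%, 14.3 to 29.4%). In this order the intervals of *Hoxd11* and *Hoxd10* overlapped slightly, as did those of *Hoxd10* and *Hoxd8*, while those of *Hoxd8* and *Hoxd9* were separated by little. The shares are of the same cells of both runs, so such overlap does not measure whether genes differ. Normalized values between 2.5 and 10, on either side of the minimum, were found for *Hoxd8* in 17 cells, 14 of them in run NXT0143, for *Hoxd11* in 7, and for *Hoxd9* and *Hoxd10* in 5 each. The order did not follow the position in the cluster throughout, since *Hoxd9*, which lies between *Hoxd10* and *Hoxd8*, had the lowest share.

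Every gene was on more often in run NXT0142, by a rule on normalized values whose size factors were centred within each run. *Hoxd8* was on in 30 of 58 cells there (51.7%, 38.2 to 65%) and in 17 of 65 cells of run NXT0143 (26.2%, 16 to 38.5%). *Hoxd10* was on in 39 cells (67.2%, 53.7 to 79%) and 26 cells (40%, 28 to 52.9%). For *Hoxd10* these intervals did not overlap, and for *Hoxd8* they met only at their ends. *Hoxd11* was on in 45 cells (77.6%, 64.7 to 87.5%) and 39 cells (60%, 47.1 to 72%), and *Hoxd9* in 16 (27.6%, 16.7 to 40.9%) and 10 (15.4%, 7.63 to 26.5%). The runs differed in depth, so each cell was thinned to 500000 reads, which left out 2 shallower zeugopod cells of each run. With at least 1 read after thinning, *Hoxd8* was found in 71.4% and 46% of cells of runs NXT0142 and NXT0143, *Hoxd9* in 41.1% and 22.2%, *Hoxd10* in 76.8% and 49.2% and *Hoxd11* in 91.1% and 76.2%.

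In autopod cells *Hoxd8* was on in 2 of 76 cells (2.63%, 0.320 to 9.18%) and *Hoxd9* in 1 (1.32%). *Hoxd10* was on in 33 (43.4%) and *Hoxd11* in 41 (53.9%, 42.1 to 65.5%). The part of the rule that refers to the highest *Hoxd* gene acts unevenly on the tissues. By the minimum of 5 alone, *Hoxd11* was on in 84.2% of autopod and 74.8% of zeugopod cells, but the runs gave different orders. Within run NXT0143 *Hoxd11* was on in 76.5% of autopod and 60% of zeugopod cells by the full rule and in 82.4% and 64.6% by the minimum alone. Autopod run NXT0072 had 47.5% and zeugopod run NXT0142 77.6% by the full rule, and 84.7% and 86.2% by the minimum alone. For *Hoxd8* the shares by the minimum alone were 6.6% and 48%, and for *Hoxd9* 7.9% and 28.5%, the zeugopod being higher by both rules.

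Compared per kilobase, the cells in which a gene was on reached quite different levels. In run NXT0142 the median normalized value among on cells was 762 for *Hoxd8*, 737 for *Hoxd10*, 196 for *Hoxd11* and 155 for *Hoxd9*. In run NXT0143 the same medians were 143, 298, 67.6 and 72.9, on a scale set within that run. *Hoxd11* was thus the most frequent of the 4 genes and yet low per cell by this measure, whereas *Hoxd10* and *Hoxd8* were found in fewer cells at higher levels. The measure divides *Hoxd11* by 3.76 kb and *Hoxd10* by 1.714 kb. In CPM, which uses no length, *Hoxd10* and *Hoxd11* lay closer. The medians among on cells of run NXT0142 were 723.7 for *Hoxd8*, 299.8 for *Hoxd10*, 221.1 for *Hoxd11* and 87.5 for *Hoxd9*. Run NXT0143 gave the same order in CPM. Summed over all zeugopod cells, *Hoxd10* made 47.5% of the normalized values of the 4 genes, *Hoxd8* 30.1%, *Hoxd11* 18% and *Hoxd9* 4.37%. The order was the same within run NXT0142, at 45%, 32.9%, 17% and 5.13%, and within run NXT0143, at 53.8%, 23.1%, 20.7% and 2.44%. In autopod cells *Hoxd10* made 54.1%, *Hoxd11* 38.5%, *Hoxd9* 5.17%, nearly all of it from 1 cell, and *Hoxd8* 2.22%. The order of these sums depends on the measure. By mean CPM over zeugopod cells of run NXT0142, *Hoxd8* was highest at 390.2, before *Hoxd10* at 290.1, *Hoxd11* at 247.5 and *Hoxd9* at 45.1. In run NXT0143 *Hoxd10* was highest at 273.2, and *Hoxd11* stood above *Hoxd8*.

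Zeugopod cells differed widely in how many of the 4 genes they had on. None was on in 10 cells, 1 in 43, 2 in 42, 3 in 17 and all 4 in 11. At least 2 were on in 70 cells (56.9%, 47.7 to 65.8%), in 41 of 58 cells of run NXT0142 (70.7%, 57.3 to 81.9%) and in 29 of 65 cells of run NXT0143 (44.6%, 32.3 to 57.5%). At least 3 were on in 23 of 58 cells of run NXT0142 (39.7%, 27 to 53.4%) and in 5 of 65 cells of run NXT0143 (7.69%, 2.54 to 17%), where the intervals were apart. Multiplying the single-gene shares of each run, as if genes were on independently, gave nearly the same number in run NXT0142 and 7.21 cells in run NXT0143. By these products all 4 would be on in 4.32 and 0.628 cells, against 9 and 2 counted. Exactly 3 would be on in 18.7 and 6.58 cells, against 14 and 3. These departures were not tested. Among autopod cells at least 2 were on in 21 of 76 (27.6%) and at least 3 in 0, which allows a share of up to 3.95% by the limit of 3 cells. When 5 reads were asked for, 3 or more of the genes were found in 41.5% of zeugopod and 11.8% of autopod cells. The share with at least 2 on depended more on the rule and the run. By the minimum of 5 alone it was 65.9% of zeugopod and 53.9% of autopod cells. Within run NXT0143 it was 53.8% and 52.9% by the minimum alone, and 44.6% and 35.3% by the full rule.

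**Figure D2:**
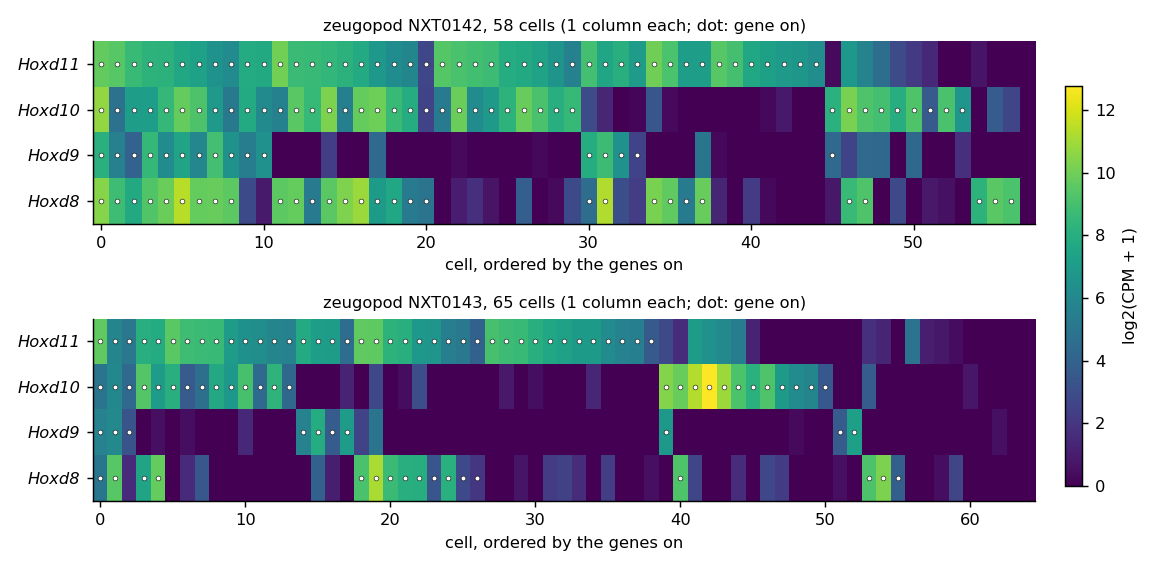
Each column is 1 retained zeugopod cell, grouped by run and ordered by the genes that were on; colour gives log2(CPM + 1) of the 4 genes. Dots mark the genes that were on; all 4 carry a dot in 9 cells of run NXT0142 and 2 of run NXT0143.

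Within the zeugopod runs the number of the 4 genes on did not rise steadily with the number of all genes detected. In run NXT0142 the 9 cells with all 4 on had a median of 3943 genes detected, the 14 cells with 3 on had 4034, the 18 cells with 2 on had 4574 the 16 cells with 1 on had 4400.5 and the 1 cell with none on had 4270. In run NXT0143 the 2 cells with all 4 on had 3354, the 3 cells with 3 on had 3937, the 24 cells with 2 on had 3656.5, the 27 cells with 1 on had 3777 and the 9 cells with none on had 3882. In the autopod cells of both runs together it did rise, from 3303 genes with none on over 3540 with 1 on to 4198 with 2 on. By run, the rise was seen in NXT0072, at 3139.5, 3294 and 4380. Autopod run NXT0143 had 3503, 4365 and 3936.5, with no steady rise.

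The possible combinations of the 4 genes were filled unevenly. *Hoxd11* alone was found in 19 cells, *Hoxd10* with *Hoxd11* in 18, *Hoxd10* alone in 16 and *Hoxd8* with *Hoxd11* in 13. *Hoxd8*, *Hoxd10* and *Hoxd11* without *Hoxd9* were found in 12 cells, and all 4 in 11. *Hoxd8* alone was found in 6 cells and *Hoxd9* with *Hoxd11* in 6. *Hoxd8* with *Hoxd10* was found in 3, *Hoxd9* alone in 2. In the 11 cells with all 4 on, *Hoxd8* had the highest normalized value in 6, *Hoxd11* in 3, *Hoxd10* in 2 and *Hoxd9* in 0. Of the 10 cells with none on, 4 had 0 reads of all 4 genes. No cell had *Hoxd8* and *Hoxd9* without *Hoxd11*: all 13 cells with both on also had *Hoxd11* on.

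The combinations that held *Hoxd8*, *Hoxd10* and *Hoxd11* together were mostly found in run NXT0142, with 10 of the 12 cells without *Hoxd9* and 9 of the 11 cells with all 4. In run NXT0143 the fullest combinations were *Hoxd11* alone, with 12 cells, *Hoxd10* alone, with 10, and *Hoxd10* with *Hoxd11* and *Hoxd8* with *Hoxd11*, with 9 each. None was on in 9 cells of this run and in 1 cell of run NXT0142. In autopod cells 4 combinations took all but 3 of 76 cells, namely *Hoxd11* alone in 21, none in 20, *Hoxd10* with *Hoxd11* in 19 and *Hoxd10* alone in 13. By the minimum of 5 alone, none was on in 7 of 76 autopod cells.

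**Figure D3:**
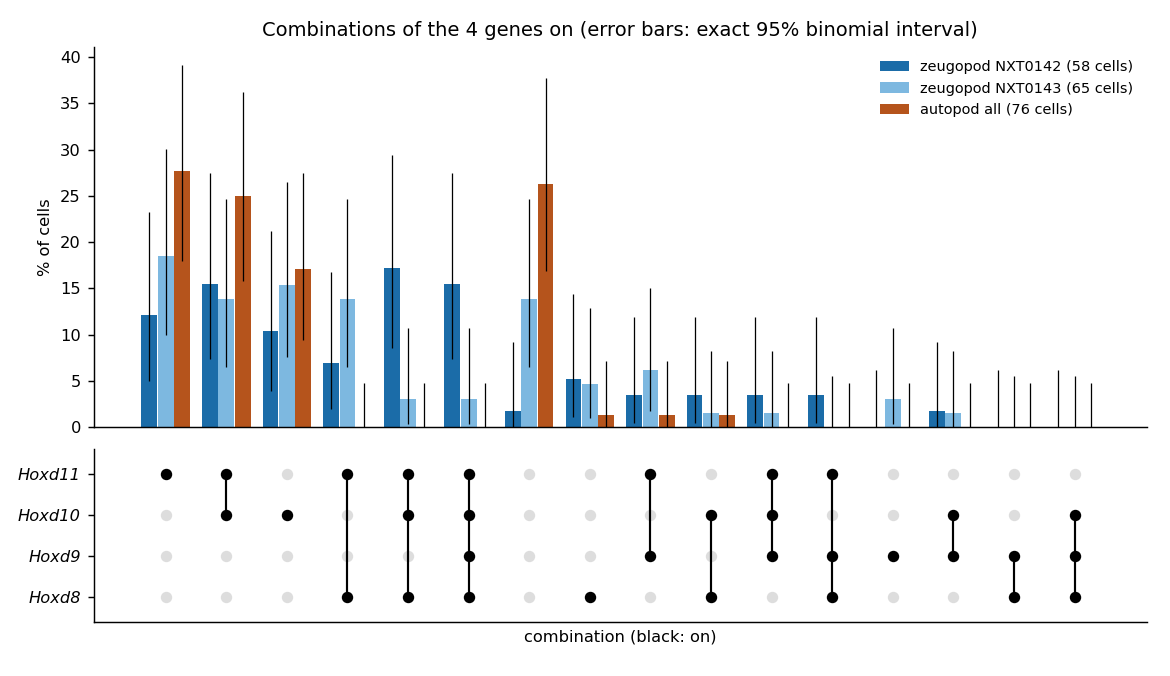
Share of cells (%) with each combination of the 4 genes on, in the zeugopod cells of each run and in all autopod cells, with exact 95% intervals as bars. All 4 genes are on in 9 of 58 cells of run NXT0142, 2 of 65 cells of run NXT0143 and 0 of 76 autopod cells.

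Pairs of genes were compared by the share of cells with one gene on, in cells with the other on and in cells with it off. *Hoxd8* was on in 38 of 84 cells with *Hoxd11* on (45.2%, 34.3 to 56.5%) and in 9 of 39 cells with it off (23.1%, 11.1 to 39.3%). Within run NXT0142 the shares were 55.6% and 38.5%, and within run NXT0143 33.3% and 15.4%. The direction was the same in both runs, and the intervals overlapped in each.

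For *Hoxd10* no such direction was seen. It was on in 44 of 84 cells with *Hoxd11* on (52.4%, 41.2 to 63.4%) and in 21 of 39 cells with it off (53.8%, 37.2 to 69.9%). Within run NXT0142 the shares were 66.7% and 69.2%, and within run NXT0143 35.9% and 46.2%. The intervals were wide and overlapped throughout. By at least 5 reads in place of the rule, *Hoxd10* was found in 63.3% of cells with *Hoxd11* and 40% of cells without (76.5% and 57.1% in run NXT0142, 48.9% and 33.3% in run NXT0143), so this comparison changed with the rule.

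*Hoxd9* was on in 22 of 84 cells with *Hoxd11* on (26.2%, 17.2 to 36.9%) and in 4 of 39 with it off (10.3%, 2.9 to 24.2%). Between the direct neighbours *Hoxd8* and *Hoxd9*, *Hoxd9* was on in 36.7% of cells with *Hoxd8* on and 17.9% of cells with it off in run NXT0142, and in 11.8% and 16.7% in run NXT0143. For *Hoxd10* the same comparison gave 70% and 64.3% in run NXT0142 and 29.4% and 43.8% in run NXT0143. Both pairs thus went opposite ways in the 2 runs, within overlapping intervals.

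**Figure D4:**
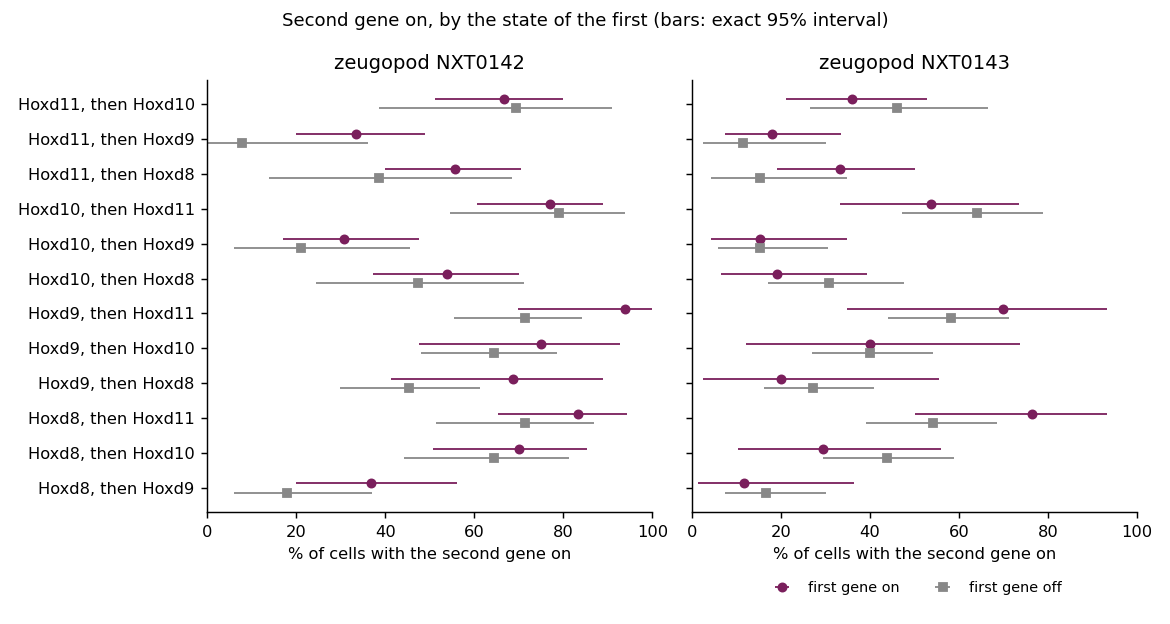
Share of zeugopod cells with one gene on among cells with a second gene on and among cells with it off, by run, with exact 95% intervals as bars. *Hoxd8* is on more often where *Hoxd11* is on in both runs, while for *Hoxd10* the intervals with *Hoxd11* on and off overlap widely.

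Rank correlations of CPM over cells were low for all 6 pairs. They are given as a description, since cells of a run share their pool and depth, and many values are 0. Between *Hoxd8* and *Hoxd11* the coefficient was 0.25 over the 58 cells of run NXT0142 and 0.25 over the 65 cells of run NXT0143. Between *Hoxd8* and *Hoxd9* it was 0.34 and 0.08, and between *Hoxd10* and *Hoxd11* 0.04 and 0.11. Pooling the runs raised the coefficient of *Hoxd8* and *Hoxd11* to 0.32.

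Where several genes were on, one usually dominated by its value per kilobase. Among the zeugopod cells with at least 1 of the 4 on, the highest normalized value belonged to *Hoxd10* in 42 cells, *Hoxd11* in 42, *Hoxd8* in 25 and *Hoxd9* in 4. The leading gene held a median of 87.4% of the sum of the 4. In the 70 cells with at least 2 on it still held a median of 72.1%, with an interquartile range of 58.6% to 83.9%. In run NXT0142 *Hoxd10* led in 24 of 57 cells and *Hoxd11* in 18, and in run NXT0143 *Hoxd11* led in 24 of 56 and *Hoxd10* in 18.

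The zeugopod cells included cells with chondrogenic markers, from *Sox9* and *Col2a1* to the later cartilage genes *Acan* and *Matn1*, and cells with markers of tendon progenitors. A cell counted as chondrogenic with 3 of 5 markers, as 38 zeugopod cells did, 19 in each run. *Hoxd11* was on in 15 of 19 chondrogenic and 30 of 39 other cells in run NXT0142, and in 13 of 19 and 26 of 46 in run NXT0143. *Hoxd8* was on in 11 of 19 chondrogenic and 19 of 39 other cells in run NXT0142, but in 2 of 19 (10.5%, 1.30 to 33.1%) and 15 of 46 (32.6%, 19.5 to 48%) in run NXT0143. The direction for *Hoxd8* was thus opposite in the 2 runs.

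Tendon markers, 2 of *Scx*, *Tnmd* and *Tnc*, were found in 17 zeugopod cells, 11 in run NXT0142 and 6 in run NXT0143, and in 0 of 76 autopod cells. Singly, *Scx* was counted in 35 zeugopod cells, *Tnc* in 41 and *Tnmd* in 2. *Hoxd8* was on in 7 of 11 tendon-marker cells against 23 of 47 others in run NXT0142. In run NXT0143 it was on in 5 of 6 (83.3%, 35.9 to 99.6%) against 12 of 59 (20.3%, 11 to 32.8%). *Hoxd11* was on in 10 of 11 against 35 of 47, and in 5 of 6 against 34 of 59. Both genes were on more often in these cells in both runs, in small numbers. *Hoxd10* was on in 10 of 11 tendon-marker cells of run NXT0142 but in 1 of 6 of run NXT0143.

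Cells with 3 of 4 cell cycle markers, 14 in run NXT0142 and 9 in run NXT0143, had more genes detected, with medians of 5015 and 5206. *Hoxd11* was on in 8 of the 14 against 37 of the other 44 cells, and in 6 of the 9 against 33 of the other 56. *Hoxd9* was on in 2 of the 14 against 14 of 44, and in 1 of the 9 against 9 of 56.

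The runs were compared over all genes by the difference in mean log2(CPM + 1) of zeugopod cells, run NXT0142 minus run NXT0143. A difference of at least 1 was called with no test, since the cells of a run are not replicates. All 4 genes were called higher in run NXT0142, against 10.5% of the 4963 genes compared, while 3.89% were called lower. *Hoxd8* differed by 2.55, with means of 5.01 (SD 4.21 over 58 cells) and 2.46 (SD 3.41 over 65 cells). *Hoxd10* differed by 2.37, with means of 5.56 and 3.19. *Hoxd11* differed by 1.57, with means of 6.47 and 4.90, and *Hoxd9* by 1.25, with means of 2.29 and 1.04. *Hoxd9* passed the filter only through run NXT0142. The spread over cells within a run was larger than each difference. Over all genes the median difference was 0.19, and *Hoxd8* and *Hoxd10* stood at percentiles 99.8 and 99.7. The run and the cells captured for it cannot be told apart.

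Other posterior *Hox* genes also differed between these runs. Of the list of *HoxA* paralogs and antisense RNA, 3 of the 4 genes compared were called higher in run NXT0142 and 0 lower, with a list median of 1.82. *Hoxa11os*, transcribed antisense to *Hoxa11*, differed by 3.33, *Hoxa10* by 2.54 and *Hoxa9* by 1.10. *Hoxa11* itself differed by 0.79. *Shox2* and *Meox2* differed the other way, by -1.12 and -0.99. Of the *HoxD* neighbours 2 genes could be compared, *Lnp* and *Mtx2*, which lie on either side of the cluster, and neither was called, at -0.04 and 0.46.

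Zeugopod and autopod shared a run only in NXT0143, with 65 and 17 cells, and the difference in mean log2(CPM + 1), zeugopod minus autopod, was taken there first. *Hoxd8* was called higher in zeugopod cells by 1.41, with means of 2.46 and 1.05, among 14.9% of the 4880 genes called higher. It passed the filter there only through the zeugopod cells. *Hoxd11* was called lower, at -1.85, with means of 4.90 and 6.75, among 19.7% called lower. *Hoxd10* differed by -0.72 and was not called. *Hoxd9* had too few reads in either tissue to be compared by the filter, and its difference was 0.87.

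Between zeugopod run NXT0142 and autopod run NXT0072 the values stood elsewhere. *Hoxd8* differed by 4.65, *Hoxd9* by 1.90 and *Hoxd10* by 1.70, all called higher, against 28.6% of 5192 genes called higher and 7.32% lower. *Hoxd8* and *Hoxd9* passed the filter only through the zeugopod cells. *Hoxd11* differed by 0.36, close to the median of all genes of 0.44. The tissues and the runs cannot be told apart in this second comparison. The zeugopod level of *Hoxd8* was higher in both comparisons, whereas *Hoxd10* and *Hoxd11* had opposite signs. After thinning to 500000 reads, *Hoxd10* within run NXT0143 was at -0.12, and so was the median of all genes. Relative to the median of all genes, *Hoxd11* was at -1.77 within run NXT0143 and at -0.08 in the second comparison.

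**Figure D5:**
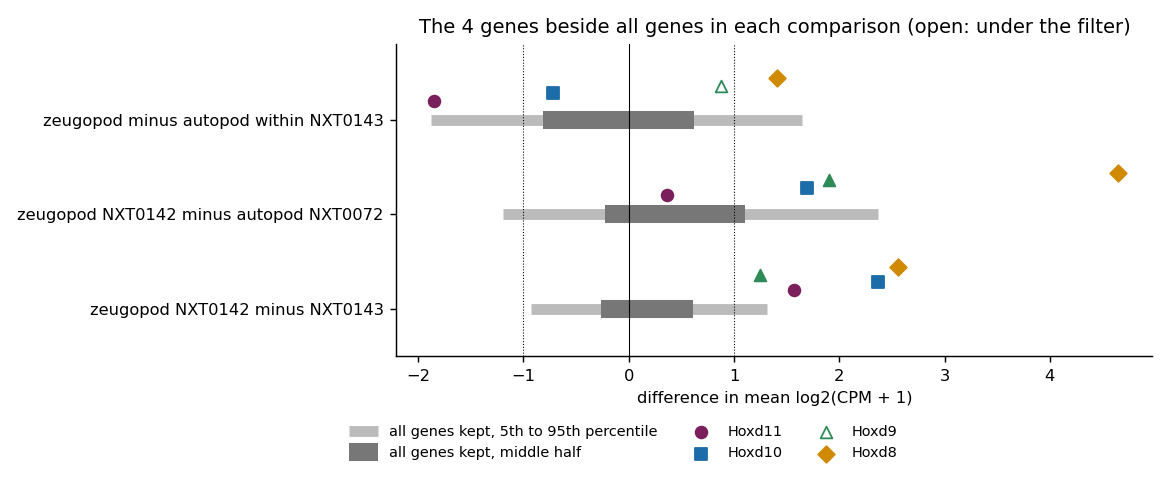
Differences in mean log2(CPM + 1) of the 4 genes in 3 comparisons: zeugopod minus autopod within run NXT0143, zeugopod run NXT0142 minus autopod run NXT0072, and zeugopod run NXT0142 minus run NXT0143; grey marks the spread of all genes compared. *Hoxd8* lies above 1 in each, and *Hoxd11* changes sign between the tissue comparisons.

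Among the *Hox* genes and *Evx2*, the homeobox gene beyond *Hoxd13*, detection in zeugopod cells fell away on both sides of the 4 genes. On the *Hoxd13* side, *Hoxd12* had at least 5 reads in 2 zeugopod cells, *Hoxd13* in 1 and *Evx2* in 0. *Lnp* and *Mtx2*, outside the cluster, had at least 5 reads in 44.7% and 31.7% of them. Within run NXT0143, of 9 *HoxD* neighbours 5 could be compared, with 1 called higher and 4 lower in zeugopod cells. The list median was -1.58, beside -0.08 over all genes. *Hoxd13* differed by -4.27, *Hoxd12* by -2.81, *Evx2* by -1.58 and *Lnp* by -1.18, and *Mtx2* by 1.14. *Hoxd12*, *Hoxd13* and *Evx2* passed the filter only through the autopod cells, where they are high. Their direction and the list median therefore follow from the filter. On the *Hoxd8* side, *Hoxd4* had at least 5 reads in 12 zeugopod cells, 10 of them in run NXT0142, and *Hoxd3* in 0. *Hoxd8* was therefore the last gene at its end of the cluster with wide detection in these cells, and *Hoxd11* the last at the other.

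Among genes that act with or beside HOXD proteins, *Hoxa10* had at least 5 reads in 86.2% of zeugopod cells and differed by 2.15 within run NXT0143 and by 2.77 between runs NXT0142 and NXT0072. *Hoxa11os* had opposite signs in these comparisons, at -4.54 and 2.07. *Meis1* and *Meis2*, genes of the most proximal limb, had at least 5 reads in 3 and 6 zeugopod cells. Of 8 genes that the study discusses beside the HOX genes, 5 could be compared within run NXT0143, with 0 called higher and 3 lower, and 6 between runs NXT0142 and NXT0072, with 1 higher and 4 lower. The 3 within run NXT0143 were *Lhx9*, a LIM-homeobox gene of limb bud mesenchyme, at -3.09, the Notch ligand gene *Jag1* at -2.31 and *Dach1* at -1.67. *Lhx9* and *Dach1* passed the filter in that run only through the autopod cells, where they are high. *Dach1* did so between the other runs too, and these directions follow from the filter. Of 7 limb segment genes 5 could be compared within run NXT0143, with 2 called higher, *Shox2* by 5.14 and *Meox2* by 4.37, and 3 lower, and 6 between runs NXT0142 and NXT0072, with 3 higher and 3 lower. Each limb segment gene compared passed the filter only through the tissue where it is high, so these directions follow from the filter. Over all genes 14.9% were called higher and 19.7% lower within run NXT0143, and 28.6% and 7.32% between the other runs.

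The genes whose levels followed each of the 4 most closely were found by the mean of the 2 within-run rank correlations of CPM over zeugopod cells, among 4300 other genes. For *Hoxd8* the closest was *Meox2*, a homeobox gene known for its role in limb muscle development, at 0.39 (0.29 in run NXT0142 and 0.49 in run NXT0143). Next were *Tceb2* at 0.30, *Sptan1* at 0.30, *Vangl2* at 0.28 and *Kdm5c* at 0.26, the last from run NXT0142 (0.51 there and 0.02 in run NXT0143). For *Hoxd8* 9 other genes lay above *Hoxd11*, and 95% of genes lay under 0.15.

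For *Hoxd11* the closest was *Jam3*, a junctional adhesion gene, at 0.34 (0.43 and 0.25), followed by *RP24-503L4.3*, *Rps14*, *Elavl1* and *Mex3b* between 0.26 and 0.29. For *Hoxd10* it was *Sulf1*, an extracellular heparan sulfatase, at 0.32 (0.24 and 0.40), followed by *Dync1li1*, *Cnot10*, *Skp2* and *Rfk*. For *Hoxd9* it was *Pja2*, a ubiquitin ligase gene, at 0.29 (0.29 and 0.29), followed by *Krcc1* (0.12 and 0.45), *Ahsa1* (0.44 and 0.11), *Eif1ax* and *Cs*. No member was among the 5 genes closest to another member. These are the highest of many weak coefficients, and they are given as a description.

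Some reads near these genes cannot be assigned with certainty. The library kit does not mark strand, and *Hoxd8* lies within the antisense gene *Hoxd3os1*, with which it shares no exon bases. *Hoxd3os1* had reads in 17 zeugopod cells, and they came to 3.17% of the *Hoxd8* reads, 1.92% in run NXT0142 and 8.13% in run NXT0143. *Gm28309*, a processed transcript on the same strand, shares 455 exon bases with *Hoxd11* and some with *Hoxd10*, and reads from it could have been counted with either gene.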

How the data were processed

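The authors aligned reads to mm10 (GRCm38) with Bowtie2 and deposited raw counts per gene for each cell. They also deposited normalized values (a signal that is never negative) of 10948 genes: counts divided by a spike-in size factor, plus 1, per kilobase of transcript. Size factors were centred within each run, so differences between runs were taken in CPM (counts per 1e+06 reads on genes). On calls and normalized medians and sums rest on the normalized values. Cells were retained as in the normalized table. The 92 spike-in rows were not used, because their columns did not match the named cells. Groups were taken from the labels, by tissue and run. On calls, shares with 95% intervals, rank correlations, and differences of mean log2(CPM + 1), with a pseudocount of 1 and a filter of 5 reads in 25% of cells of either group, were computed in Python 3.11.15 with numpy 2.4.6, scipy 1.17.1 and pandas 2.3.3, and plotted with matplotlib 3.10.9. The scripts were tested on simulated data. No test was made between pools of 1 sample. The text names the 4 genes, at most 4 genes of each listed group with counts for the rest, and the 5 genes most like each member. The 4 genes and the lists were chosen with earlier results of these data known. Other rules for on, thinning, other pseudocounts, no filter and single runs were tried. The results of 1 listed group of genes are not reported here in full.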

Additional observations from a re-analysis of the deposited data

How the results depend on the processing

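The share of zeugopod cells with a gene on depended on the rule. By a normalized value of at least 5 alone, *Hoxd8* was on in 48% of cells and at least 2 of the genes in 65.9%. By at least 1 read the shares were 66.7% for *Hoxd8*, 35.8% for *Hoxd9*, 67.5% for *Hoxd10*, 85.4% for *Hoxd11* and 85.4% for at least 2 genes. By at least 5 reads they were 55.3% for *Hoxd8*, 79.7% for *Hoxd11* and 70.7% for at least 2 genes. By at least 1 read after thinning they were 58%, 31.1%, 62.2% and 83.2% for *Hoxd8* to *Hoxd11* and 77.3% for at least 2 genes. Run NXT0142 alone gave 51.7% for *Hoxd8*, 67.2% for *Hoxd10*, 77.6% for *Hoxd11* and 70.7% for at least 2 genes, and run NXT0143 alone gave 26.2% for *Hoxd8*, 40% for *Hoxd10* and 44.6% for at least 2 genes. For the zeugopod minus autopod difference within run NXT0143, a pseudocount of 10 gave 0.74 for *Hoxd8*, and one of 0.1 gave 1.44 for *Hoxd9* and -1.18 for *Hoxd10*. In the other runs *Hoxd9* was at 1.90, *Hoxd10* at 1.70 and *Hoxd11* at 0.36, the last with its sign reversed from -1.85. The difference of *Hoxd9* between zeugopod runs was 0.63 with a pseudocount of 10. Among all values recomputed for the comparisons, 50 kept their call or stayed within their interval, 28 moved and 1 reversed, and among the other values 64 stayed and 13 moved. The causes were not tested. No paired analysis was possible because each tissue was 1 pooled sample with no replicate numbers. Whether depth limited the levels near the on threshold was not tested, and 4 zeugopod cells were too shallow to be thinned.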

Other observations

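The 6 zeugopod cells that were captured but not retained had a median of 110308 reads on genes. At least 5 reads of *Hoxd8* were found in 1 of them, and at least 5 reads of *Hoxd9*, *Hoxd10* or *Hoxd11* in 0.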
